A study of Mus musculus with 2 samples.

Results

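Lef1 occupancy at 10 genes of the follicular helper T cell program was taken from a genome-wide chromatin immunoprecipitation sequencing (ChIP-seq) map of mouse CD4+ T cells. Follicular helper T cells are the CD4+ T cells that enter B cell follicles and help B cells in germinal centres. Bcl6 is the transcriptional repressor that defines them, and Blimp-1, the product of Prdm1, represses Bcl6 and is repressed by it. Lef1 and its relative Tcf1 are DNA-binding proteins of the TCF/LEF family that are known to favour this program early in the differentiation of CD4+ T cells.

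The members were Bcl6, Maf, Batf and Irf4, which encode transcription factors, the cytokine gene Il21, the receptor genes Pdcd1, Icos and Cxcr5, the adaptor gene Sh2d1a and the antagonist Prdm1. A peak was counted for a gene when it lay inside the gene body or within 50 kb of it, measured between the nearest edges on mm10. Of the 2052 listed peaks, 4 met this rule, and they lay at 3 of the 10 genes. Of all 21887 protein-coding genes of the mouse annotation, 3384 (15.5%) had a peak by the same rule.

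The map was made with the anti-Lef1 antibody C18A7 from 1 library of wild-type C57BL/6 spleen cells, sorted as TCRβ+ CD4+ CD25- conventional T cells from mice of 8 to 10 weeks and also described as GFP-negative, with no reporter allele named. The control was 1 library made with the same antibody from CD4+ T cells of CD4-Cre+ Lef1 fl/fl mice, in which Cre recombinase under the control of Cd4 sequences deletes floxed Lef1 in T cells. The labels name the control cells as all CD4 T cells, with no CD25 gate and no age, and describe both tissues as naive CD4 T cells. A difference in occupancy between CD25-negative and other CD4+ cells cannot be told apart from the difference in genotype. Neither library was replicated, so no difference could be tested and every value is a description of these libraries. Follicular helper cells themselves were not profiled, and a peak list does not measure expression. Of 8 genes used as CD4 T cell markers, 4 had a peak (Cd247, Lck, Cd28 and Zap70), against 15.5% of all protein-coding genes, and Cd3d, Cd3e and Cd3g had none. These 7 genes are shared with CD8 T cells, and Cd4 itself had no peak. The peak nearest to Lck, at 1.7 kb, lay closer to Fam167b, at 1.4 kb, and the other peak at Lck overlapped another protein-coding gene. Cd28 is also counted in the wider list below. Peaks lay at 0 of 2 CD8 T cell genes, 1 of 4 regulatory T cell genes (Ctla4) and 0 of 4 myeloid genes. Foxp3, among the regulatory T cell genes without one, lies on chromosome X, where 1.2% of protein-coding genes had a peak.

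Start sites came from a RefSeq table (GRCm38.p6, the assembly of mm10) of promoter windows that run from 250 bases before a start site to 50 bases after it. The table holds windows for 6 of the 10 members. No listed peak overlapped any of them, so that the peaks at Prdm1, Il21 and Pdcd1 all lay away from these start sites. The 250 bases before the start sites of these 3 genes and before an internal start site of Bcl6 are shown because Lef1 binding was listed near the first 3 genes and not near Bcl6. They read 5′ to 3′ on the minus strand, on which all these genes lie, at chr10:44458749-44458998, chr3:37232637-37232886, chr1:94052554-94052803 and chr16:23981284-23981533. Capitals mark CTTTG or its reverse complement CAAAG, the core that TCF/LEF proteins recognise.
Prdm1: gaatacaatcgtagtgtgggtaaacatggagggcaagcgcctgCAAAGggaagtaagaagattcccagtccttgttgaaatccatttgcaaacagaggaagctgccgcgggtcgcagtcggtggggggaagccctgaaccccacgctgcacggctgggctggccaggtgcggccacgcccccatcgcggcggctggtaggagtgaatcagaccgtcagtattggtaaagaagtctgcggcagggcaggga
Il21: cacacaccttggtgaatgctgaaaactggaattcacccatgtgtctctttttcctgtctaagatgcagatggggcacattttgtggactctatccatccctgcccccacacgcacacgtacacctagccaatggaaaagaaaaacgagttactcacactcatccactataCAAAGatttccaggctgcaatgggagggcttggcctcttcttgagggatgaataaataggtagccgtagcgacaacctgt
Pdcd1: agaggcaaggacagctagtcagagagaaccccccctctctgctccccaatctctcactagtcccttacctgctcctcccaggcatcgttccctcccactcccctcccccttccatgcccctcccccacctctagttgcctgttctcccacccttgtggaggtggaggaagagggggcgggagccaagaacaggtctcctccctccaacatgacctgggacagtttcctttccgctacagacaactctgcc
Bcl6: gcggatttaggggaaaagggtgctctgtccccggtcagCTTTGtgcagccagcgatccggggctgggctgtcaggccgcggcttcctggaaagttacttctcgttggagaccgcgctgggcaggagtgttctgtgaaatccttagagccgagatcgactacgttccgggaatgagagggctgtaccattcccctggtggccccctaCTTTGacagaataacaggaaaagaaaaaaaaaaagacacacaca

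The core began 207 bases before the start site of Prdm1 and 80 bases before that of Il21, and it was not found at Pdcd1. At the internal start site of Bcl6 it began 212 and 44 bases before the start, and the match at 44 bases extended to CTTTGA. No other window of a member held CTTTGA, the other window of Bcl6 included. The Bcl6 stretch shown is therefore not representative of the members. At the other start site of Bcl6 it began 160 and 95 bases before the start, at Batf 27 bases before and at Irf4 31 bases after it. Both strands were searched. Of all 32851 promoter windows, 53.9% held CTTTG and 16% held the longer CTTTGA, which contains it, so a match at a member is common to many promoters. Among the 312 windows that a listed peak overlapped, 55.8% held CTTTG and 27.2% held CTTTGA.

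The cytokine gene Il21 had the highest-scoring of the 4 peaks. Interleukin-21 is a cytokine by which follicular helper cells act on B cells. Its peak (chromosome 3, 37205261 to 37205468) had a deposited score of 6.84 (the −log10 of a p-value from peak calling) and ranked 186 among the 2052 peaks. It was 208 bp wide, and 10.0% of the listed peaks were at least as wide. The peak lay 17.3 kb beyond the 3′ end of Il21 and 27.2 kb from its start site, with no other protein-coding gene within 50 kb. The annotated long non-coding RNA gene Gm12532 lay slightly closer to the peak than Il21, at 16.7 kb. The next protein-coding gene was Il2, which encodes the growth factor interleukin-2, at 79.3 kb.

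Of the 3 receptor genes, Pdcd1 was the one with a peak. Pdcd1 encodes PD-1, an inhibitory receptor that follicular helper cells carry at a high level. Its peak (chromosome 1, 94035537 to 94035600) scored 5.41, ranked 376 and was 64 bp wide. It lay 2.7 kb beyond the 3′ end of the gene and 17.0 kb from the start site. Neu4, a sialidase gene, lay 7.2 kb from the same peak and Gal3st2c also lay within 50 kb, so that the peak is not assigned to Pdcd1 by anything but distance.

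Prdm1 had 2 peaks, both inside the annotated gene body, which is 91.4 kb long. The higher one (chromosome 10, 44448217 to 44448337) scored 4.99 over 121 bp and lay 10.4 kb downstream of the start site shown above. The other (44483399 to 44483453) scored 4.14 over 55 bp and lay 24.7 kb upstream of that start site, in the part of the annotated body that extends further 5′. It ranked 1851 of 2052, near the bottom of the list, and was as narrow as any listed peak. The score of 4.99 was shared by 75 peaks and ranked 462. Among all listed peaks the median score was 4.40 and the median width 79 bp, and 628 peaks (30.6%) scored above that median, at which many are tied. Of the 4 member peaks, 3 were above the median score and 2 above the median width.

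**Figure D1:**
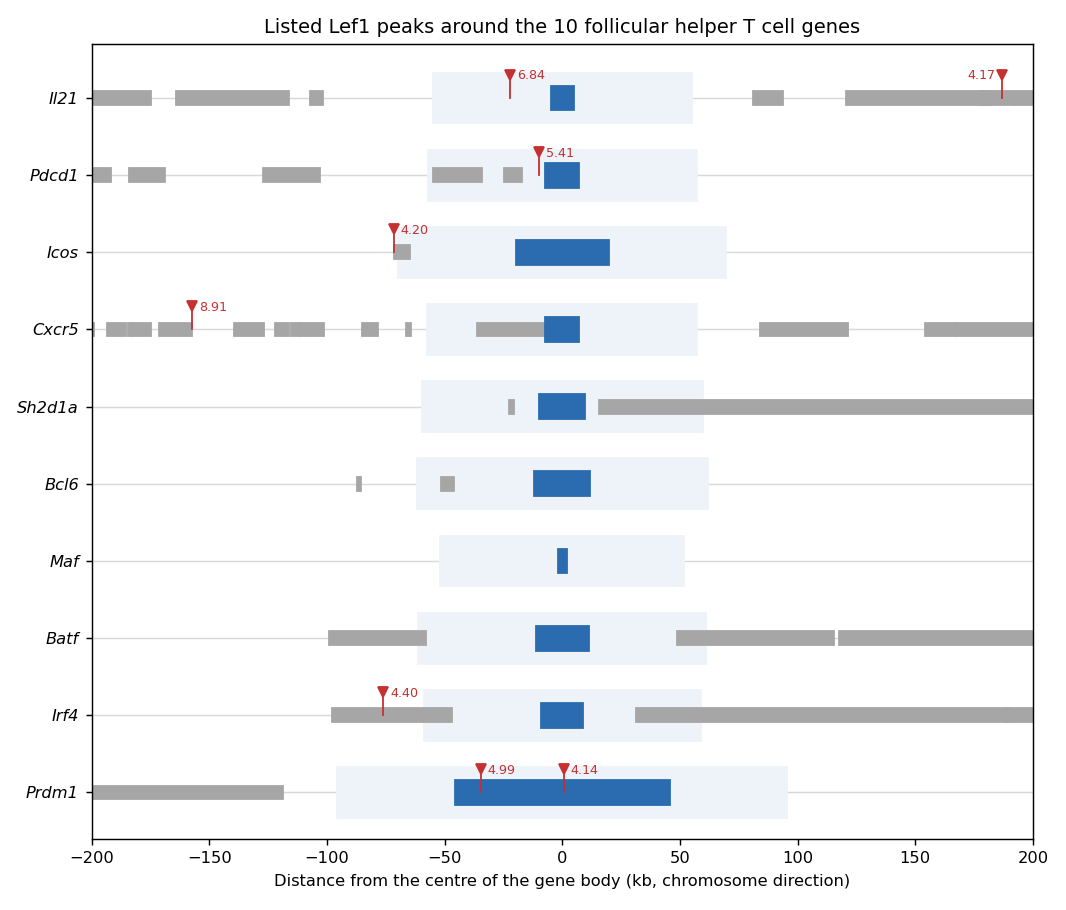
Listed Lef1 peaks (red, labelled with their −log10 p) around each of the 10 genes (blue), with distance from the centre of the gene body in kb on the x axis. Pale bands mark the gene body with 50 kb on either side and grey bars other protein-coding genes. Il21 and Pdcd1 have 1 peak in the band and Prdm1 has 2, while the peak nearest to Icos falls just outside its band.

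The other 7 members had no peak within 50 kb. Icos, which encodes a costimulatory receptor needed for follicular helper cells, was just outside the limit. Its nearest peak lay 51.7 kb away, while the furthest peak inside the limit was the one 17.3 kb from Il21. The peak nearest to Icos (chromosome 1, 60908965 to 60909027, score 4.20, 63 bp) spanned the start site of Ctla4, the neighbouring gene for an inhibitory receptor of the same family. It fell wholly inside a promoter window, so that the sequence under a peak can be shown. The stretch chr1:60908775-60909027 is given on the plus strand, with the peak in capitals. The last 3 bases of the peak are the first 3 of the transcript.
Ctla4: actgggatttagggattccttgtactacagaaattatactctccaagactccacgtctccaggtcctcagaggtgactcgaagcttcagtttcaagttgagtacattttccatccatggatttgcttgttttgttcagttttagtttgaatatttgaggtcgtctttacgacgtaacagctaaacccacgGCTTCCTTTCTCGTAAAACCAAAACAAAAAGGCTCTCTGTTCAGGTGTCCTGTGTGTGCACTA
This peak held no CTTTG on either strand. The only core match of the whole window, with both strands searched, began 28 bases after the start site, beyond the end of the peak. It was part of a match to CTTTGA. Of the 143 listed peaks that lay wholly inside a promoter window, 32.2% held CTTTG and 14.0% held CTTTGA. These peaks are shorter than the windows that hold them, so these shares cannot be set against those of whole windows. Cd28, the other costimulatory receptor gene of this cluster, had a peak of 4.08 at a distance of 3.7 kb (chromosome 1, 60777015 to 60777208).

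Cxcr5, the chemokine receptor that directs cells into follicles, lay 150.0 kb from its nearest peak. That peak (chromosome 9, 44361597 to 44361811) scored 8.91, more than any of the 4 member peaks, and overlapped Vps11, a gene of endosomal trafficking. Sh2d1a, which encodes the adaptor SAP of SLAM family receptors, lay 2947.6 kb from the nearest peak. It lies on chromosome X, which held 15 peaks in all, and 12 of its 966 protein-coding genes (1.2%) had one within 50 kb.

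None of the 4 transcription factor genes that drive the program had a peak, against 15.5% of all protein-coding genes. At that share, a set of 4 genes would often include none with a peak. Irf4, which cooperates with Batf in activated T cells, was the nearest to one, at 67.1 kb from a peak of 4.40 inside Dusp22, a phosphatase gene. Maf, whose product promotes Il21 expression, lay 383.1 kb from a peak, Bcl6 551.0 kb and Batf 631.7 kb. Measured from the gene ends, Bcl6 lay in a stretch of 1.67 Mb between neighbouring listed peaks, 551.0 kb below it and 1091.2 kb above it. Maf lay in one of 1.29 Mb and Batf in one of 1.76 Mb.

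The distances of the members spread over much of the range of all genes. Over the 10 members the median distance to the nearest peak was 108.6 kb, against 317.2 kb over all protein-coding genes. The median length of the gene bodies was 18.6 kb for the members and 17.2 kb for all protein-coding genes. As near to a peak as Prdm1, Pdcd1 and Il21, or nearer, were 4.5%, 5.8% and 8.9% of all genes. For Icos, Irf4 and Cxcr5 these shares were 15.8%, 18.7% and 32%, for Maf, Bcl6 and Batf 55.2%, 65.3% and 69.1%, and for Sh2d1a 95%. The windows of the members, 1.26 Mb in all, held 3.18 peaks per Mb (95% exact Poisson interval 0.867 to 8.15, for counting error only). The windows of all protein-coding genes held 0.989 per Mb. The interval rests on 4 peaks, 2 of them at Prdm1, and treats the peaks as independent. It is no test of the members against all genes. Within 10 kb of a peak were 2 of the 10 members, Prdm1 and Pdcd1, against 7.33% of all protein-coding genes, and inside the gene body 1, Prdm1, against 4.51%. Within 100 kb were 5 of 10, with Icos and Irf4 added, against 24.6%. When each peak went to its nearest protein-coding gene alone, the same 3 members had one, against 6.73%. Among peaks above the median score 3 members had one, against 5.84%, and among those above the upper quartile 2, Il21 and Pdcd1, against 4.42%. Each of these shares of members was above that of all genes, but each rests on 1 to 5 genes and 1 library, and the members were chosen with earlier results of these data known.

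**Figure D2:**
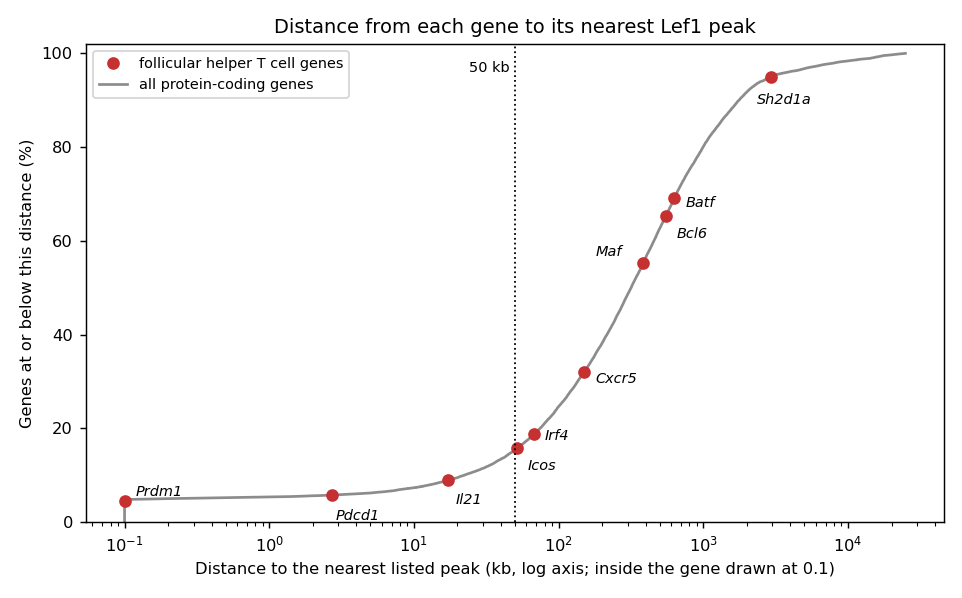
Distance from each gene to its nearest listed peak (x axis, kb, log scale, with genes that contain a peak drawn at 0.1) against the share of all protein-coding genes at or below that distance (y axis, %). The 10 members (red) lie on the curve of all protein-coding genes (grey) from 4.5% for Prdm1 to 95% for Sh2d1a, and 3 of them are left of the 50 kb limit.

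The names of the listed peaks carry numbers that appear to be those of a longer set of calls, which no label states. The numbers run up to 33876, and the list with its 2052 peaks is 6.06% of that. If there was such a set, a member without a listed peak is one without a peak in this small part of the calls. In the list these numbers rise with position on every chromosome. The numbers missing between neighbouring listed peaks would therefore stand for calls that are not in the list, if the unlisted calls were numbered in the same way. In the stretch around Bcl6 27 numbers were missing, or 16.2 per Mb, against 12.7 numbers per Mb over all of chromosome 16. Around Maf there were 20.2 per Mb against 13.8 on chromosome 8, and around Batf 17.7 per Mb against 13.8 on chromosome 12. Around Cxcr5 there were 18.9 per Mb against 15.1 on chromosome 9. Around Irf4 and Icos there were 12.1 and 11.9 per Mb, against 13.3 on chromosome 13 and 13.1 on chromosome 1. Around the members with a listed peak the numbers, listed ones included, came to 18.7 per Mb for Prdm1 against 13.4 on chromosome 10, 9.0 for Il21 against 11.7 on chromosome 3 and 6.4 for Pdcd1 against 13.1 on chromosome 1. Around Sh2d1a they came to 2.8 per Mb against 2.9 on chromosome X, over a stretch of 29.57 Mb with 162 protein-coding genes. The stretches of the other members ran from 0.82 Mb for Irf4 to 3.18 Mb for Icos. These values therefore describe whole stretches between listed peaks and not the density at each gene. The members with and without a listed peak thus overlapped in this measure. The positions and scores of any unlisted calls are unknown.

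**Figure D3:**
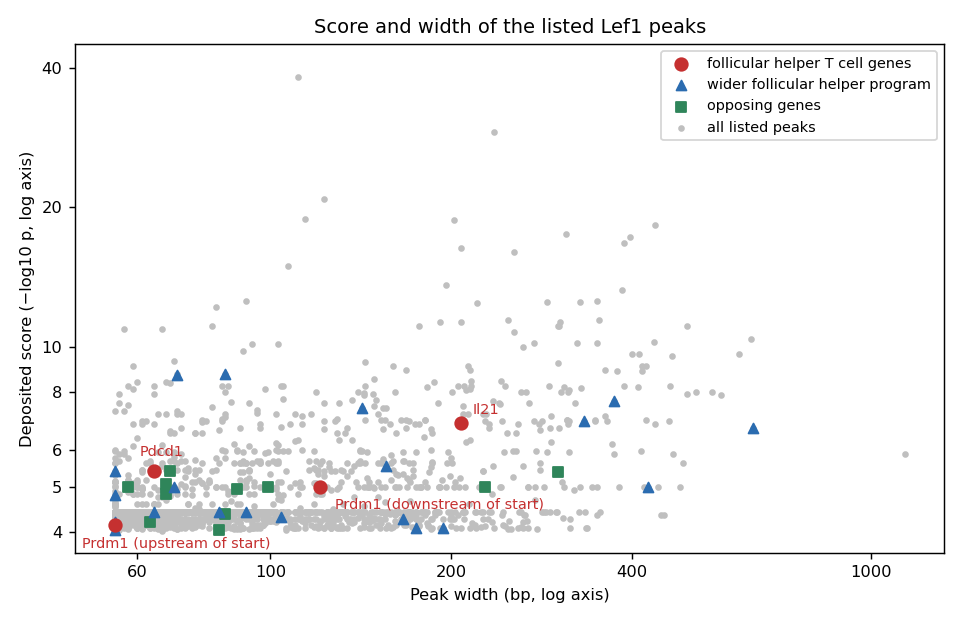
Deposited score (y axis, −log10 p) against width (x axis, bp) of the 2052 listed peaks, both on log axes, with the peaks at the members in red, those at the wider follicular helper program in blue and those at opposing genes in green. The Il21 peak stands at 6.84 and 208 bp, and the upstream Prdm1 peak at the lower left with 4.14 and 55 bp.

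A wider list of 30 further genes linked to follicular helper cells, among them regulators that restrain them such as Rc3h1 and Bach2, which repeats part of an earlier list drawn up for these data, had 13 members (43.3%) with a peak, against 15.5% of all protein-coding genes. The median length of the gene bodies was 31.3 kb here and 24.8 kb in the opposing list below, against 17.2 kb for all protein-coding genes. A longer body has a wider reach by this rule, and the shares were not adjusted for length. Of the 20 distinct peaks at the wider list, 8 lay inside a gene of that list. Of the same peaks, 12 scored above the median of all peaks, as did 30.6% of all 2052 listed peaks. The highest scores were at cytokine receptor genes. Il21r, which encodes the receptor of interleukin-21, had a peak of 8.74 at 14.3 kb (chromosome 7, 125588832 to 125588915), but Il4ra lay closer to it, at 9.4 kb. At Il6st, which encodes the signalling chain of the interleukin-6 receptor, 4 peaks were listed, the highest at 8.72. They lay close together, at 36.3, 36.4, 36.5 and 39.0 kb upstream, and may be fewer sites. Il6ra, the ligand-binding chain, had 1 of 4.99 at 5.0 kb. Interleukin-6 is a cytokine that induces Bcl6. The signal transducer gene Stat3 had none, and neither had Fyn or Rc3h1.

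Among the further transcription factor genes 5 of 10 had a peak. They were Lef1 (highest 7.65), Pou2f2 (7.38, with the peak overlapping Zfp574), Tcf7 (6.68), Nfatc1 (4.40) and Bach2 (4.04). Part of Lef1 is deleted in the control cells. Ascl2, Tox, Tox2, Pou2af1 and Id3 had none. Among the surface molecules 5 of 12 had a peak. The SLAM family receptor genes Slamf1 and Slamf6, whose products signal through SAP, each had one inside, of 4.99 over 425 bp (chromosome 1, 171782508 to 171782932) and of 4.40 over 82 bp (171937872 to 171937953). Cd84, of the same cluster, shared the Slamf6 peak at 47.2 kb, and Ly9 lay 175.1 kb from its nearest peak. Cd200 had a peak of 4.25 inside and Cd28 the one described above. Cd40lg, Btla, S1pr2, Gpr183, Tnfsf8 and Tnfrsf4 had none, and neither had Il4 or Sostdc1. Cd40lg, like Sh2d1a, lies on chromosome X, where 1.2% of protein-coding genes had a peak.

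The opposing list was drawn up as genes that oppose the program or are lowered in it. This does not hold throughout for some of them, such as Itch, Stat4 and Cd69. Of its 20 genes, 9 (45%) had a peak, against 15.5% of all protein-coding genes. These were S1pr1 (5.41) and Ccr7 (highest 5.37), receptors that hold cells in or guide them through the circulation and the T cell zone, Il2rb (5.06, with the peak overlapping C1qtnf6 at 16.6 kb from Il2rb), a chain of the interleukin-2 receptor, and Stat5a and Stat5b, which share a peak of 4.94 inside Stat5b and transmit interleukin-2 signals. Foxp1 (highest 4.99), Klf2 (4.99), Stat4 (highest 4.99) and Ctla4 (4.20) completed them. The Klf2 peak lay 39.6 kb from Klf2 but 21.9 kb from Ap1m1. The peak of 4.99 at Stat4 (6.7 kb) and that of 5.37 at Ccr7 (28.0 kb) also lay closer to another protein-coding gene, at 5.5 and 26.6 kb. When each peak went to its nearest protein-coding gene alone, 6 opposing genes and 10 genes of the wider list had one, against 6.73% of all protein-coding genes. Foxo1, Il2ra, Il7r, Id2, Tbx21, Gata3, Selplg, Cd69, Socs3, Usp7 and Itch had none. Over the distinct peaks, the median score was 4.89 in the wider list and 4.99 in the opposing list, with 12 of 20 and 8 of 11 above the median of all peaks.

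**Figure D4:**
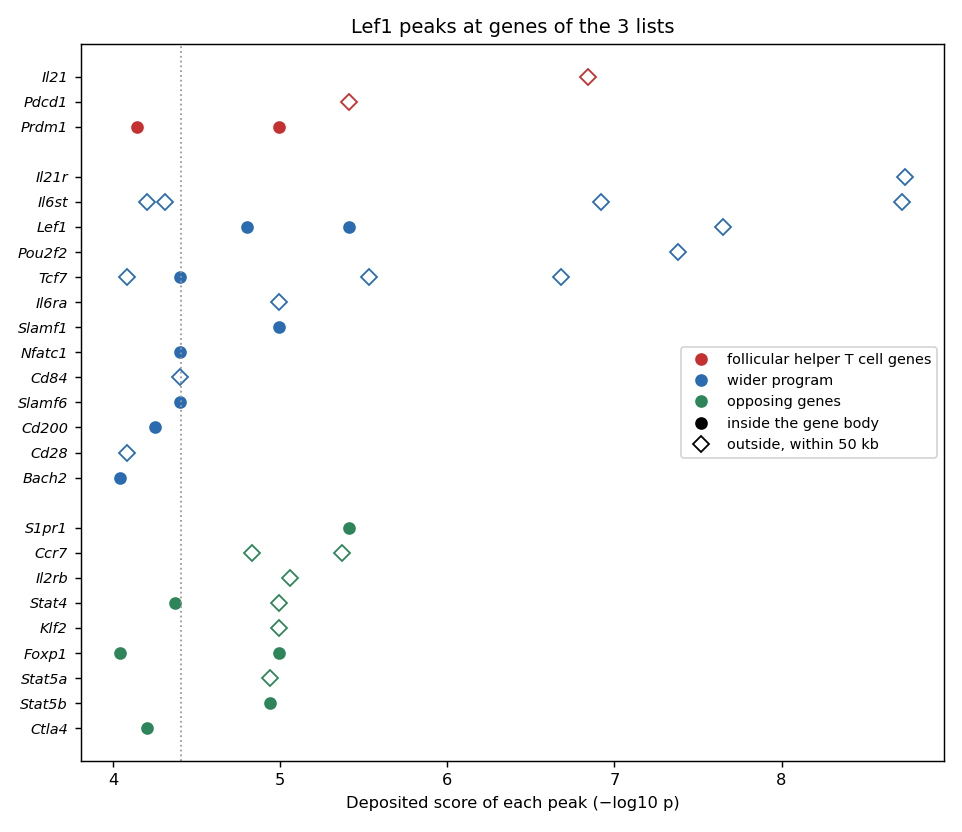
Deposited scores (x axis, −log10 p) of every peak at the genes with at least 1 peak, for the members (red), the wider program (blue) and the opposing genes (green). Filled circles are peaks inside the gene body, open diamonds peaks outside it within 50 kb, and the dotted line is the median score of all peaks, 4.40. The highest scores are those of Il21r and Il6st, and the 2 Prdm1 peaks lie on either side of the line.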

How the data were processed

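The data were 1 list of Lef1 ChIP-seq peaks from wild-type conventional CD4+ T cells, called by the authors against 1 library from Lef1-deficient CD4+ T cells, per the labels. The value of each peak is the −log10 of a p-value, per the file headers, deposited by the authors. The build mm10 and the tools MACS2 2.1.1, Bowtie2 2.3.4.1 and FastQC are named, without roles, per the submitters' processing notes. Their parameters, and any filters, are not given in these sources, and the read depth is unknown. Scores were used to describe and rank peaks within the list.

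Starts were raised by 1 base on the assumption of the BED convention. Distances to 21887 RefSeq protein-coding genes (GRCm38.p6) were computed in Python 3.11.15 with pandas 2.3.3, numpy 2.4.6 and scipy 1.17.1, and the counting was tested on simulated peaks. All 10 members and the genes of the other lists except Trac were in the table. Every member and every list gene with a peak was named, and a few genes of the planned lists are not reported here. The 10 members and the lists were chosen with earlier results of these data known. No test was made, since each group had 1 library. As no genome sequence was used here, motifs were searched in RefSeq promoter windows and in peaks inside them. Alternatives were 10 and 100 kb, gene bodies, peak centres, the nearest gene, score thresholds and merged peaks.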

Additional observations from a re-analysis of the deposited data

How the results depend on the processing

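The number of members with a peak was 3 by distance from the peak centre, by the nearest gene, above the median score and after merging peaks within 1 kb, and 2 within 10 kb and above the upper quartile of scores. Within 100 kb it was 5, with Icos and Irf4 added (24.6% of all protein-coding genes), and by overlap with the gene body it was 1, Prdm1 (4.51%). Peaks at members numbered 2 by overlap and 2 above the upper quartile of scores. For the 3 members with a peak, 5 of 24 repeats moved the count by over 1.5 times: that of Prdm1 with scores above the median or the upper quartile, that of Il21 within 10 kb and by overlap, and that of Pdcd1 by overlap. The other members could gain a peak within 100 kb alone. In the wider list 7 genes had a peak by overlap, 7 with scores above the median and 5 with scores above the upper quartile. In the opposing list 5 had one within 10 kb, 5 by overlap and 3 above the upper quartile. All protein-coding genes with a peak numbered 1604 within 10 kb, 5388 within 100 kb, 987 by overlap, 1474 by the nearest gene, 1278 for scores above the median and 967 for scores above the upper quartile. Each alternative sets the number of peaks or the reach of a gene by its construction. The share of promoter peaks that hold the core was 14.0% with CTTTGA and 32.2% with CTTTG. It could not be computed for the other peaks, for which no sequence was used here. No paired analysis was possible because neither group holds more than 1 library, and no replicate could be left out. Where no peak was listed, weaker occupancy was not detectable at the threshold of the list and a depth that is unknown.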
